A study of Mus musculus with 4 samples.

Results

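The genes described are 10 subunits of the BAF chromatin remodelling complexes, namely Arid1a, Arid1b, Arid2, Smarca2, Smarca4, Smarcb1, Smarcc1, Smarcc2, Smarcd1 and Pbrm1, out of 21827 protein-coding genes. They were chosen by name, as well known members of these complexes. The assay was ATAC-seq, where an enzyme inserts sequencing adapters into DNA that nucleosomes leave exposed, and the cells were dental mesenchyme of the incisor. The animals were wild-type C57BL/6 mice aged 4 weeks, and the labels list no treatment. The 4 samples of the series were lanes of 1 library and shared 1 set of values, so the spread between replicates is unknown and conditions cannot be compared. An open region was given to a gene when the coding transcription start site (TSS) nearest to its midpoint was that gene's, or when it overlapped 1 kb either side of a coding TSS of the gene. By this rule the 10 genes had 91 of 121574 regions and 2661 reads, or 0.116% of the reads in regions. Coordinates are mm10 and counted from 1. A range in parentheses after a read count is its exact 95% Poisson interval and reflects counting error in this library alone.

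BAF complexes use the energy of ATP to slide or evict nucleosomes, and so open DNA at promoters and enhancers. Each complex has a single ATPase motor, either Smarca4 or Smarca2, and a shared core. Canonical BAF then carries an ARID subunit, Arid1a or Arid1b, whereas the PBAF form carries Arid2 together with Pbrm1. In the growing mouse incisor, Arid1a is known to act on the cell cycle exit of transit-amplifying cells in the mesenchyme.

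All 10 genes had a region at a promoter, as did 64.6% of protein-coding genes. Their promoter reads ran from 68 at Pbrm1 to 247 at Smarca4, with a median of 131.5, against 67 over the 14102 genes with a promoter region. Pbrm1 was not the lowest at every setting, since Arid2 had 43 within 500 bp and Arid1b had 66 with 1 TSS per gene. At least 2 times that median, or 134 reads, was reached by 5 of the 10 genes (Smarca4, Smarca2, Smarcd1, Arid1a and Smarcc1) and by 22.8% of genes with a promoter region. Open promoters rich in CpG pairs have more reads in general, and all 10 genes have such a promoter. Their CpG ratio, observed over expected CpG pairs in the 1 kb around the TSS, ran from 0.80 at Smarcd1 to 0.97 at Pbrm1. Among the 10425 genes with a promoter region and a ratio of at least 0.6 the median was 85 promoter reads. Within that class Smarca4 lay at the 91.9th percentile, Arid2 at the 58.4th and Pbrm1 at the 40.3rd.

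The genes differed more in what lay around the promoter. Arid1b had 637 reads (588 to 688) in 35 regions, Smarca2 had 475 (433 to 520) in 19, Arid1a had 454 (413 to 498) in 11, and Arid2 had 221 (193 to 252) in 15. The other 6 genes, Smarca4, Smarcb1, Smarcc1, Smarcc2, Smarcd1 and Pbrm1, had 1 to 3 regions each and none away from a promoter. A gene with a promoter region and at least 1 nearest region had none away from promoters in 27.0% of cases. At the other end, 4 of the 10 genes, and 20.5% of such genes, had at least 100 reads away from promoters. Regions at promoters took 56.9% of the members' reads (exact 95% binomial interval 55.0% to 58.7%), against 51.2% of all reads in regions. Intergenic regions took 22.6% and introns 18.2%.

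**Figure D1:**
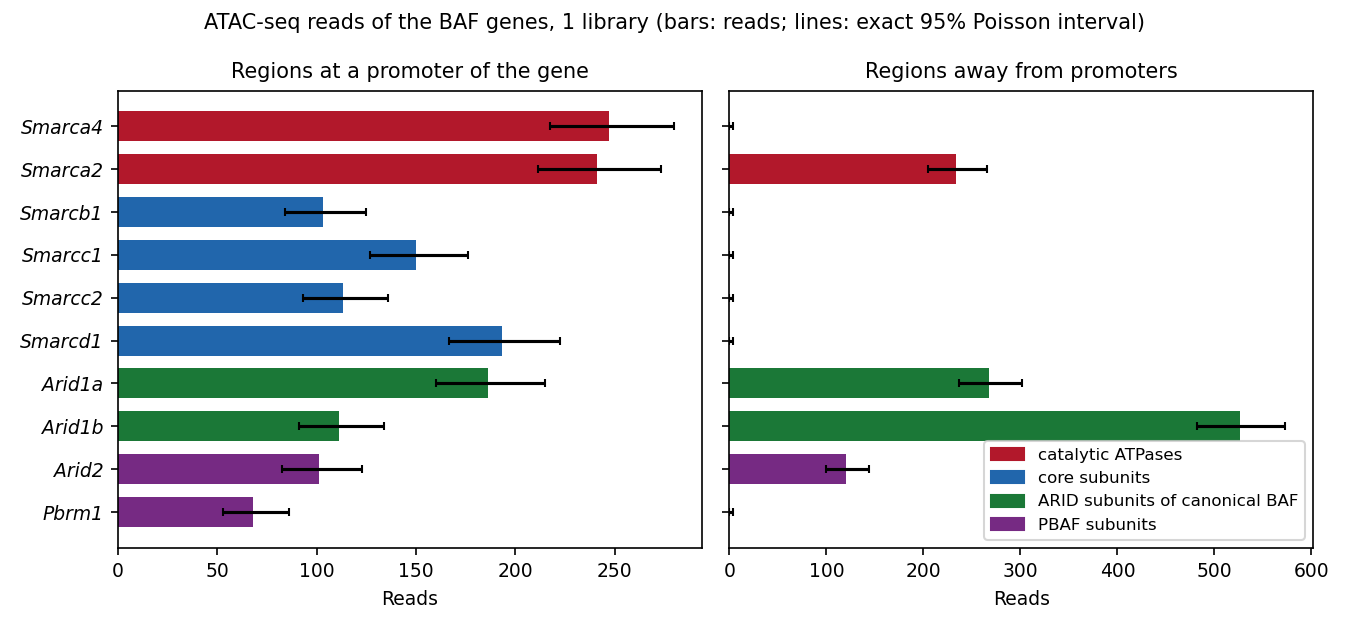
Reads in regions at a promoter of each gene (left) and in its regions away from promoters (right), in 1 library; bars are reads, lines are exact 95% Poisson intervals and colours give the role in the complex. The promoter bars span 68 to 247 reads, whereas the right panel holds 120 to 526 reads for 4 genes and none for the other 6.

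The 2 catalytic ATPases had promoters that could not be told apart by their read sums and were otherwise laid out differently. Smarca4, on chromosome 9 from 21616169 to 21704230, had a single region, from 21615684 to 21616628, over its TSSs. It held 247 reads (217 to 280), more than 97.4% of the regions at promoters, and was the region with the most reads at any member promoter. No other region was nearest to the gene. Smarca2, on chromosome 19 from 26605050 to 26778322, had 241 promoter reads (212 to 273), split between 2 promoters. The upstream promoter region, 26604626 to 26605222, held 143 reads (121 to 169). The internal one, 26747605 to 26748438, held 98 (79.6 to 119.4). It lay in the stretch from 26747603 to 26750318, where 9 of the 12 annotated coding starts of Smarca2 gather. These internal starts head shorter transcripts of the gene. The ratio of Smarca4 to Smarca2 was 1.02 over all promoter reads (exact conditional 95% interval 0.85 to 1.23), and 1.73 (1.4 to 2.14) with the upstream promoter of Smarca2 alone, a choice made after seeing the data.

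The 2 Smarca2 promoters also differed in base composition. The upstream region was 63.7% G and C with a CpG ratio of 0.79, and the internal region was 50.6% with a ratio of 0.54. Another large Smarca2 region, from 26730312 to 26730818 in an intron 17.0 kb before the internal starts, held 100 reads (81.4 to 122). It was richer in reads than 99.4% of regions away from promoters, and its CpG ratio was 0.35. No transcript start of the full GENCODE annotation fell inside it, although a Smarca2 start lay 0.57 kb from its midpoint. Downstream of the first promoter, at 1.32 to 2.33 kb from the nearest coding TSS used here, lay small regions of 13, 13, 2 and 23 reads. The 23-read region covered 1 Smarca2 transcript start of the full GENCODE annotation.

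The sequences that set these promoters side by side are printed 5′ to 3′ along the gene, in lower case with matches to the searched motifs in capitals. The Smarca4 window (chr9:21615919-21616168, plus strand) and the upstream Smarca2 window (chr19:26604910-26605049, plus strand) come from the RefSeq promoters of GRCm38.p6 and end at the base before a TSS. The Smarca2 window was cut to 140 bases, the longest stretch without an annotated exon, so its motif matches are over less sequence. The internal Smarca2 window (chr19:26747949-26748188, plus strand) and the Smarca2 intron window (chr19:26730446-26730685, plus strand, the middle of the region) were read from the GRCm38 genome. Capitals in Smarca4 mark 2 matches to the NRF1 core GCATGCGC and 3 to the GC box GGGCGG of the SP and KLF factors. The upstream Smarca2 window has 1 GC box, the internal one has 1 CCAAT box, and the intron window has no match. The Smarca4 window is 70.8% G and C with 25 CG pairs in 250 bases, against 44.6% with 6 in 240 bases of the internal Smarca2 window.
Smarca4: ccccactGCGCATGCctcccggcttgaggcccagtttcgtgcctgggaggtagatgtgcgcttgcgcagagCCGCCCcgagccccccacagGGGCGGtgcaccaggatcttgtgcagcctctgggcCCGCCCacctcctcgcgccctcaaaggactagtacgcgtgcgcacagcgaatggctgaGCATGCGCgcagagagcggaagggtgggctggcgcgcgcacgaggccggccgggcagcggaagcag
Smarca2 upstream: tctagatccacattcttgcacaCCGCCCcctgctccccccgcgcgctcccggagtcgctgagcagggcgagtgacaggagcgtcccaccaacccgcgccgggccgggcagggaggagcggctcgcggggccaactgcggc
Smarca2 internal: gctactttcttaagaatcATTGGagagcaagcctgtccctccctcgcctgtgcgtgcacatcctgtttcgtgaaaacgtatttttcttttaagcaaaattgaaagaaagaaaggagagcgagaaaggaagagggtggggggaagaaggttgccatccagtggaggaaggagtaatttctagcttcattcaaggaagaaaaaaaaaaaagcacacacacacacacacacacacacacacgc
Smarca2 intron: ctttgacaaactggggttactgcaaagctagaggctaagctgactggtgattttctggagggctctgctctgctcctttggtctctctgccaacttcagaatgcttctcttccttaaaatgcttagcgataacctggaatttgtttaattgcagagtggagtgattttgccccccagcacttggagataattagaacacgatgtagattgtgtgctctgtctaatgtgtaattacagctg

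The 4 core subunits had no region away from a promoter by the nearest-TSS rule. Counted over the gene body and 10 kb upstream, Smarcc1 had 282 reads in place of 150, Smarcb1 had 107 in place of 103, and Smarcc2 and Smarcd1 kept 113 and 193. Smarcb1, which holds the complex to the nucleosome and is lost in rhabdoid tumours, had 1 region on chromosome 10, from 75921055 to 75922120, with 103 reads (84.1 to 125). Smarcc1 and Smarcc2, the paired scaffold subunits, had 150 (127 to 176) and 113 (93.1 to 136) promoter reads. Nearly all lay in 1 region each: 148 in the region on chromosome 9 from 110131656 to 110132429 at Smarcc1, and 105 in that on chromosome 10 from 128458475 to 128459537 at Smarcc2. The ratio of Smarcc1 to Smarcc2 was 1.33, with an interval of 1.03 to 1.71, and the separate intervals of the 2 counts overlapped. With the start of the gene record as the only TSS the order turned, with 95 reads at Smarcc1 and 113 at Smarcc2 (ratio 0.84). The Smarcc1 record starts at 110117708, upstream of its first coding start at 110131980. A coding TSS of another gene, Dhx30, lies close to that record start, 14.2 kb upstream of the midpoint of the 148-read region. The 95 reads thus cannot be assigned to Smarcc1 alone, and the count of 282 also takes in that stretch. Smarcd1, which links the complex to transcription factors, had 193 (167 to 222), of which 192 lay on chromosome 15 from 99701986 to 99702593. That region is only 608 bp wide, and its 316 reads per kilobase were the densest of the member regions, ahead of 261 at Smarca4 and 98.8 at the largest Smarcc2 region. The Smarcc2 region also covers the start of the microRNA gene Mir8105, 568 bp before the nearest Smarcc2 TSS, so its reads cannot be assigned to either gene. The midpoint of the Smarcd1 region also lies within Gm17349, a coding model annotated across the same sequence. The TSS of Gm17349 is 3.2 kb away, and the region covers no start of it.

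The Smarcb1 and Smarcc1 promoters are shown as examples of core subunits, again along the gene and up to the TSS, from the RefSeq promoters of GRCm38.p6. They lie at chr10:75921618-75921864 on the minus strand and chr9:110131774-110131979 on the plus strand. Annotated exons were cut away, which left 247 and 206 bases. Capitals in Smarcb1 mark 2 GC boxes and 1 AP-1 match (TGANTCA). In Smarcc1 they mark 1 ETS match (CCGGAAG), 1 NRF1 core and 1 match to a CTCF core (CCANNAGGG).
Smarcb1: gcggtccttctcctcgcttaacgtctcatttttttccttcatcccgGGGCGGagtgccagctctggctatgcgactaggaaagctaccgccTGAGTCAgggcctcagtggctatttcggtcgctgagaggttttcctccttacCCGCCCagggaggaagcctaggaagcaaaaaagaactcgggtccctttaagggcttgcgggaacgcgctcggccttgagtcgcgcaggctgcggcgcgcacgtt
Smarcc1: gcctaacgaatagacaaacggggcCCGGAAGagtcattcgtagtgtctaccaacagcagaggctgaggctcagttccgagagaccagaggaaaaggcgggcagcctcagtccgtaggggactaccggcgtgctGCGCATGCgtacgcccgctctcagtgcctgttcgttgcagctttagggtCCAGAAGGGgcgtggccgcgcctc

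The ARID subunits, which bind DNA and define the canonical BAF and PBAF forms, had promoters listed in several pieces. At Arid1a, Arid1b and Arid2 the promoter region with the most reads covered none of the coding starts of the gene. This was so for 3 of the 10 members and for 14.8% of the genes with a promoter region. Some listed regions touch end to end, so the result depends in part on where the list cuts them. At the other 7 members the largest region covered a coding start, with its midpoint 1 to 242 bp from the nearest. Arid2 on chromosome 15 had 37 reads (26.1 to 51.0) over its TSSs, from 96287357 to 96287786. It had more in regions upstream, 58 (44.0 to 75.0) from 96286486 to 96286896 and 77 (60.8 to 96.2) from 96285367 to 96285951. The last of these lay 1.86 kb from the Arid2 TSS and 1.16 kb from the start of the noncoding gene 2610037D02Rik, and so counts as away from promoters. Between the 2 nearer regions a 236 bp region that was 80.9% G and C held 6 reads.

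Arid1b on chromosome 17 had few reads in the listed regions over its coding starts. The region over the most upstream start, 4994856 to 4995048, held 4 reads (1.09 to 10.2), and that over the most downstream, 4996312 to 4996558, held 3 (0.62 to 8.77). Larger regions flanked the first of these, with 62 reads (47.5 to 79.5) from 4993831 to 4994654 and 42 (30.3 to 56.8) from 4995454 to 4996311, with its midpoint in a coding exon. The 42-read region touches the 3-read region, so the cut between them enters the low count at the downstream start. The full GENCODE annotation places another Arid1b transcript start inside the 62-read region, which the basic set of coding transcripts lacks. Arid1a on chromosome 4 had 63 reads (48.4 to 80.6) over its upstream TSS, from 133756595 to 133757078. Touching it upstream were a 3-read region and then one of 39 reads (27.7 to 53.3), up to 133757703. Together these held 105 reads, the count of Arid1a with 1 TSS per gene. Another 76 (59.9 to 95.1) lay from 133754102 to 133754711, in the intron that precedes its internal TSS. The intervals of the 63 and 76 reads overlapped, so which of those regions is larger is not settled by this depth. Joined, the touching regions would exceed the 76 reads and cover a coding start. Base composition was taken from 1 TSS window of 1 kb per gene, the one with the highest CpG ratio. That window was 79.0% G and C at Arid1a, 74.2% at Arid1b and 73.1% at Arid2, against 60.0% at Smarca2 and 77.0% at Smarcc2. It need not be the start with a low count, and the 484 bp region over the upstream Arid1a start was 62.0%. Whether base composition or mapping enters the low counts at starts of the ARID genes was not tested.

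**Figure D2:**
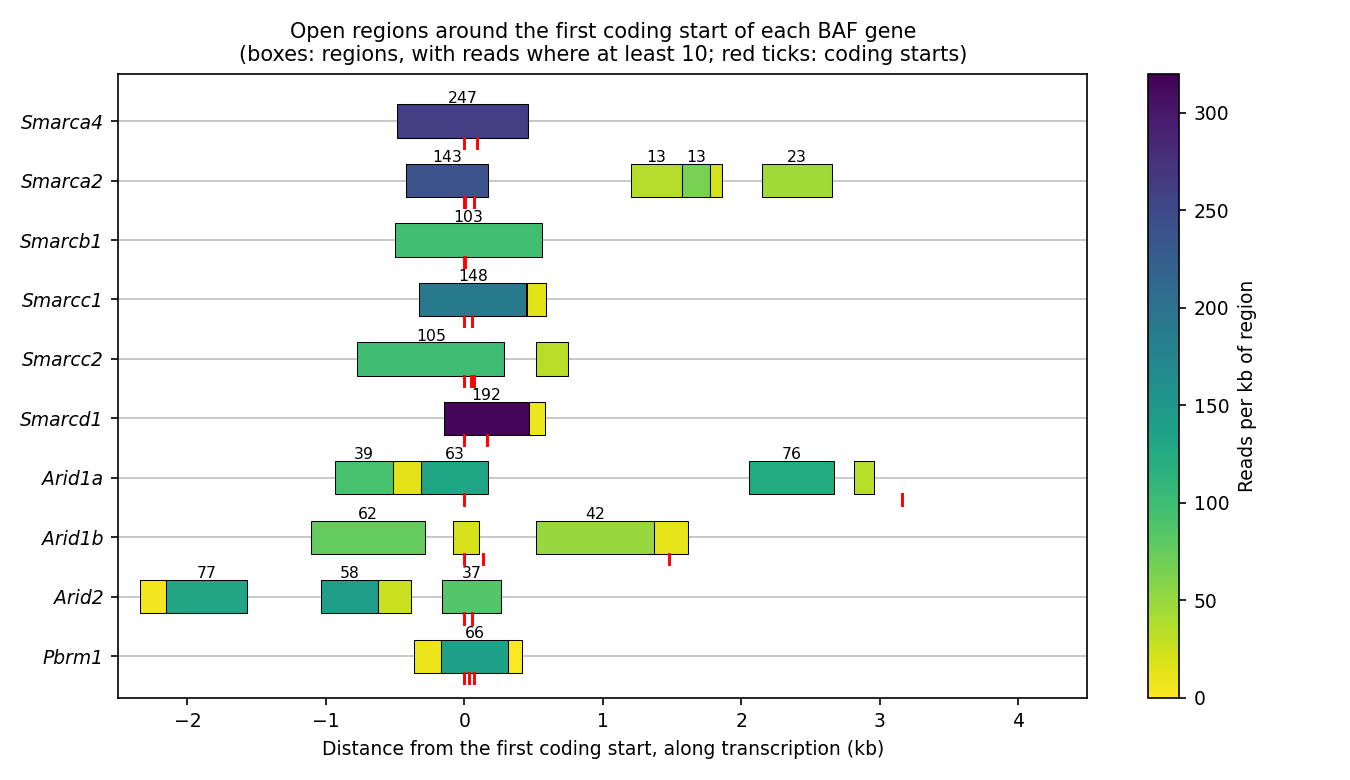
Open regions from 2.5 kb before to 4.5 kb after the first coding start of each gene, oriented along transcription; box width is region width, colour is reads per kilobase, numbers are reads of regions with at least 10, and red ticks are coding starts. The ATPase and core genes and Pbrm1 have their main box over the first start, whereas Arid2 has boxes of 58 and 77 reads upstream and Arid1b has 62 and 42 on either side of a thin box at the start.

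Pbrm1, the bromodomain subunit of PBAF, had the lowest sum of the members, 68 reads (52.8 to 86.2), of which 66 lay on chromosome 14 from 31018973 to 31019453. That region is shared. The nucleolar gene Gnl3, transcribed the opposite way, starts 14 bp from a Pbrm1 TSS, so the reads belong to both genes. A second group of Pbrm1 coding starts, at 31025510 and 31025511, had no region within 1 kb. Arid2, its partner in PBAF, had 101 promoter reads (82.3 to 123), and the intervals of the 2 genes overlapped. Overlap of separate intervals does not settle whether the counts differ, and no ratio was computed for these 2 genes. The Arid2 count depended on the promoter window, with 43 reads within 500 bp, below the 68 of Pbrm1, and 178 within 2 kb.

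**Figure D3:**
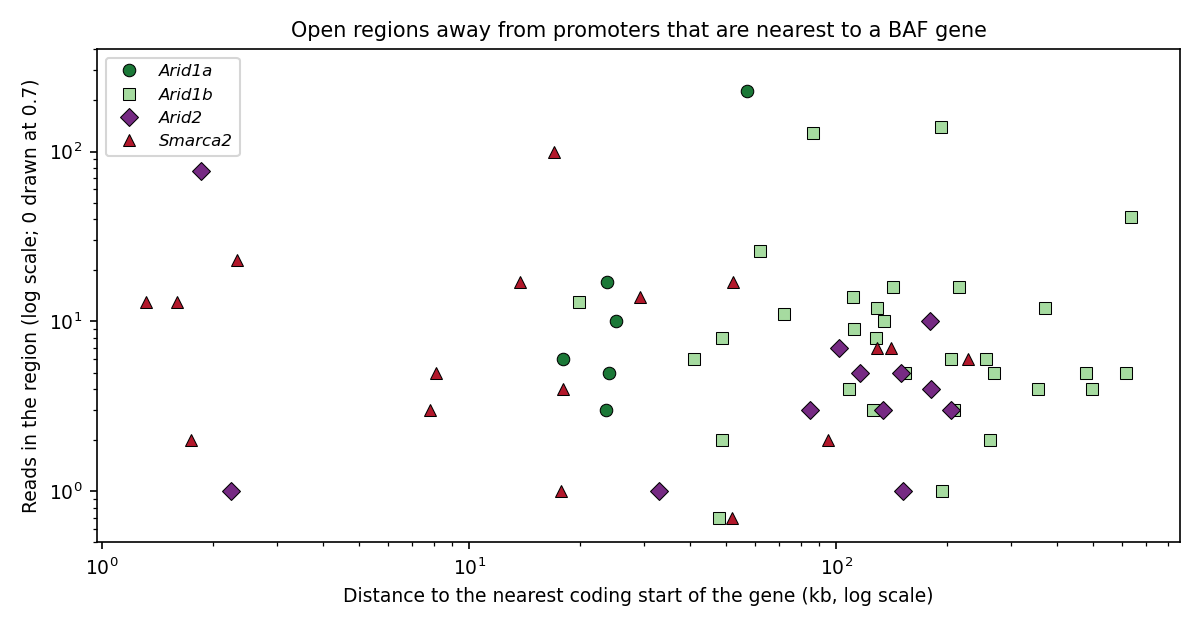
Reads against distance from the nearest coding start for the 66 regions away from promoters that were nearest to Arid1a, Arid1b, Arid2 or Smarca2; both axes are logarithmic and each point is 1 region. Regions of at least 100 reads are 1 of Arid1a, 2 of Arid1b and 1 of Smarca2, between 17.0 and 194 kb from a start.

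Away from promoters, few regions carried most of the reads. An intergenic Arid1a region held 227 reads (198 to 258) over 1466 bp, against 186 (160 to 215) at the Arid1a promoters. These intervals overlapped, which does not settle whether the counts differ. The intergenic region ranked 86th of the 96530 regions away from promoters. It lay 57.2 kb from the Arid1a TSS, 58.4 kb from that of Rps6ka1, a kinase gene, and 2.49 kb from the start of the long noncoding RNA gene Gm12974. Its assignment to Arid1a thus rests on a difference of little more than 1 kb. Arid1b had an intronic region from 5189627 to 5190410 with 140 reads (118 to 165), 194 kb into the gene. It also had an intergenic region from 4907897 to 4908736 with 129 (108 to 153), 86.6 kb upstream and 510 kb from the TSS of the next coding gene. These ranked 244th and 312th. A further Arid1b region 634 kb upstream held 41 reads (29.4 to 55.6) and lay almost as near to Nox3, at 665 kb. The remaining regions of Arid1b away from promoters had at most 26 reads.

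The base composition of these regions differed. The CpG ratio was 0.90 in the Arid1a region (72.2% G and C) and 0.97 in the upstream Arid1b region (67.5%). It was 0.90 in the Arid2 region 1.86 kb upstream (66.0%). The intronic regions of Arid1b (0.49, 64.2%) and Smarca2 (0.35, 45.6%) had lower ratios. The range of 0.80 to 0.97 given for the members' promoters is the highest per gene over 1 kb TSS windows. It is thus not the like measure. Listed regions at member promoters also went lower, with 0.54 at the internal Smarca2 promoter and 0.35 in a Smarcc2 region of 8 reads. Of all 638 regions away from promoters with at least 100 reads, 43.3% had a ratio of at least 0.6, and of the 33392 with at least 10 reads, 6.73% did. No annotated transcript start of the full GENCODE set fell inside the Arid1a region, the 2 Arid1b regions or the Arid2 region.

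The middle 240 bases of the Arid1b and Arid2 regions are printed on the plus strand of GRCm38 to show that contrast. They lie at chr17:4908197-4908436 and chr17:5189899-5190138 for the upstream and intronic Arid1b regions, and chr15:96285540-96285779 for Arid2. Capitals mark 6 GC box matches in the upstream Arid1b window, some of them overlapping, and 2 in Arid2. The Arid1b intron has 1 GC box and 1 CTCF core. The upstream Arid1b window is 80.8% G and C with 41 CG pairs, and the intronic one is 65.4% with 16.
Arid1b upstream: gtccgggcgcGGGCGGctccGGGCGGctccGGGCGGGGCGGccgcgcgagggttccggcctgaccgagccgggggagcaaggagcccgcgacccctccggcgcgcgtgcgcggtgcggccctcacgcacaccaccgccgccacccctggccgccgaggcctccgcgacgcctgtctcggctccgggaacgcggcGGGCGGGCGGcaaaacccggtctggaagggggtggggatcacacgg
Arid1b intron: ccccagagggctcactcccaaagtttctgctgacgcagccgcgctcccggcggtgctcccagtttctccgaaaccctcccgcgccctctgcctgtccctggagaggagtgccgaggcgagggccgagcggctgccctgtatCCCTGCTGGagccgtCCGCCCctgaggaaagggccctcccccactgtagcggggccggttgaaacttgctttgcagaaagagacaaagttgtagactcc
Arid2 upstream: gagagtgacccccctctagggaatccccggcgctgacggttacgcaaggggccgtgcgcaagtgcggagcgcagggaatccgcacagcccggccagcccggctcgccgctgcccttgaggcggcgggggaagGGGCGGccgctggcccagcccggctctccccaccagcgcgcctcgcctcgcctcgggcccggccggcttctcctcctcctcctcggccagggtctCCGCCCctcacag

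The paralogue Arid1a had more promoter reads than Arid1b, with a ratio of 1.68 (1.32 to 2.14), whereas Arid1b had more in all regions, with a ratio of 1.403 (1.24 to 1.59). The second ratio sums very unequal stretches of genome. The sequence nearest to the coding starts was 862 kb for Arid1b and 101 kb for Arid1a. Per kilobase of region Arid1b had 0.54 times the reads of Arid1a, and by their largest regions 0.62 times. The order of Smarca2 over Smarca4 in all regions, 1.92 (1.65 to 2.25), turned likewise to 0.29 and 0.58. Spans of 679 and 65.4 kb enter that ratio.

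The same span separated the genes with and without regions away from promoters. It ran from 101 to 862 kb for Arid1a, Arid2, Smarca2 and Arid1b, and from 6.71 to 66.8 kb for the other 6, without overlap. Among all genes with a promoter region and a span between 101 and 862 kb, 3.58% had no region away from promoters, and between 6.71 and 66.8 kb 42.4% had none. Per 100 kb of span, Smarca2 and Arid2 had 34.4 and 35.8 reads away from promoters, near the median gene with a region at 30.1. Arid1b had 61.0 and Arid1a had 264, at the 68.0th and 95.7th percentiles. The Arid1a value rests on the 227-read region. With starts of noncoding genes also competing for regions, the reads of Arid1a fell from 454 to 192, those of Arid1b from 637 to 130 and those of Arid2 from 221 to 101. Arid1b then had 0.68 times the reads of Arid1a, so that order turned too.

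**Figure D4:**
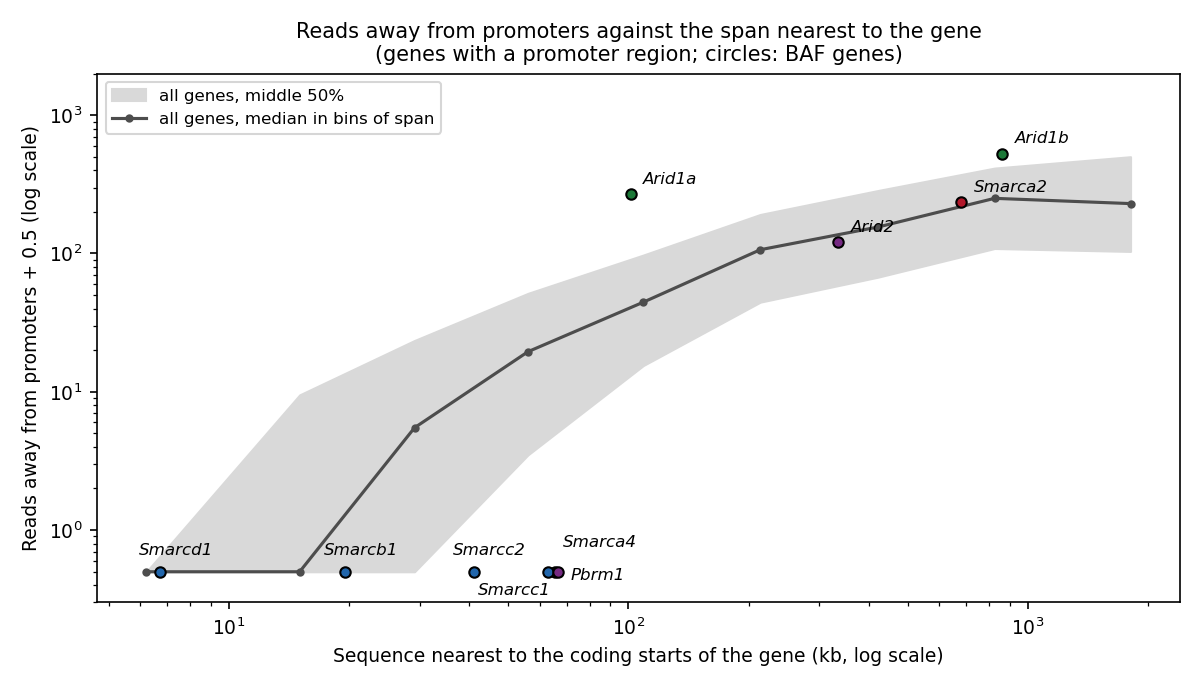
Reads away from promoters, with 0.5 added, against the length of sequence nearest to the coding starts of the gene, on logarithmic axes; circles are the 10 genes, the line joins medians and the band the middle 50% of all genes with a promoter region in bins of span. Smarca2 and Arid2 lie near the line, Arid1a and Arid1b above the band, and the 6 genes at 0 have spans of at most 66.8 kb; the circle of Smarca4 is mostly hidden by that of Pbrm1.

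Motifs were searched in the RefSeq promoters, 250 bases before to 50 after the start, as exact matches on both strands. Entries existed for 9 of the members (10 entries), and Arid2 had none. The GC box GGGCGG was in all 10 entries, and in 61.3% of the 14083 entries of genes with a promoter region. The NRF1 core GCATGCGC, the element of a regulator of respiratory genes, was in 3 (Smarca4, Smarcb1 and Smarcc1), against 4.71% of entries. The Smarcb1 match lies outside the window printed above, and so does the GC box of Smarcc1. ETS (CCGGAAG) was in 2, Smarca2 and Smarcc1 (15.5%). AP-1 (TGANTCA) was in 2, Smarca2 and Smarcb1 (5.12%), and the CTCF core (CCANNAGGG) in 2, Smarcc1 and Smarcd1 (6.68%). The Smarca2 matches to ETS and AP-1 are not in its printed upstream window. YY1 (ATGGCGG) was in Smarcd1 alone (7.03%), the E-box CACGTG in Pbrm1 alone (9.52%) and RUNX (TGTGGTT) in Arid1b alone (3.63%). No entry held the CCAAT box (36.8%), the cyclic AMP response element TGACGTCA (2.87%) or TEAD (CATTCC, 12.2%). None of these strings contains another, and a match is a run of letters and not a bound site. Several strings, among them the GC box and the NRF1 core, contain a CG pair. The 14083 entries also include promoters poor in CpG, so the shares are not matched to the CpG-rich promoters of the members. In the middle 300 bases of the 24 member regions away from promoters with at least 10 reads, 7 held the GC box, 6 TEAD, 5 the CCAAT box, 3 the CTCF core, 2 RUNX and 1 AP-1. The shares among all 33392 such regions were 12.6%, 19.9%, 31.9%, 8.89%, 11.04% and 10.2%. NRF1 and YY1 were in 1 member region each (0.749% and 1.24% of all), and ETS, the cyclic AMP response element and the E-box were in 0 (2.15%, 0.356% and 4.28%).

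The rest of the complex was less uniform. Of 19 other BAF and PBAF subunits 17 had a promoter region, their median was 71 promoter reads, and 6 reached 134 reads. The highest was Actl6a, an actin-related subunit, with 431 (391 to 474). Next was Actb, the actin of the complex and of the cytoskeleton, with 273 (242 to 307). Actl6b and Dpf1, known from the neuronal form of the complex, had 7 (2.81 to 14.4) and 91 (73.3 to 112). Smarcd1 had 193, its paralogue Smarcd3 had 175 (150 to 203), and no region was listed for Smarcd2 or Ss18l1. Phf10, another subunit of PBAF, had 9 (4.12 to 17.1), and Brd7, also of PBAF, had 75 (59.0 to 94.0). These counts are not adjusted for length of promoter region.

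Other remodellers gave the scale. Median promoter reads were 59 over 8 genes of the ISWI family, from 9 at Smarca1 to 291 at Rsf1. They were 128 over 9 genes of the CHD family, from 1 at Chd5 to 224 at Chd1 and Chd8. The 8 genes of the INO80 and SRCAP family had 131.5, from 40 at Actr8 to 324 at Ep400. The 23 Polycomb genes, which act against BAF at many loci, had 133, from 13 at Cbx7 to 285 at Pcgf5. The BAF median of 131.5 lay within 2 reads of those of the INO80 and Polycomb lists, and no difference between lists was tested. By list, genes with a nearest region but none away from promoters were 7 of 23 Polycomb and 1 of 8 INO80 and SRCAP genes. They were 2 of 8 ISWI genes, 0 of 9 CHD genes and 3 of the 19 other BAF and PBAF subunits. The lists are counted whole, with Rbbp4, Smarcd2 and Ss18l1, which had no nearest region.

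**Figure D5:**
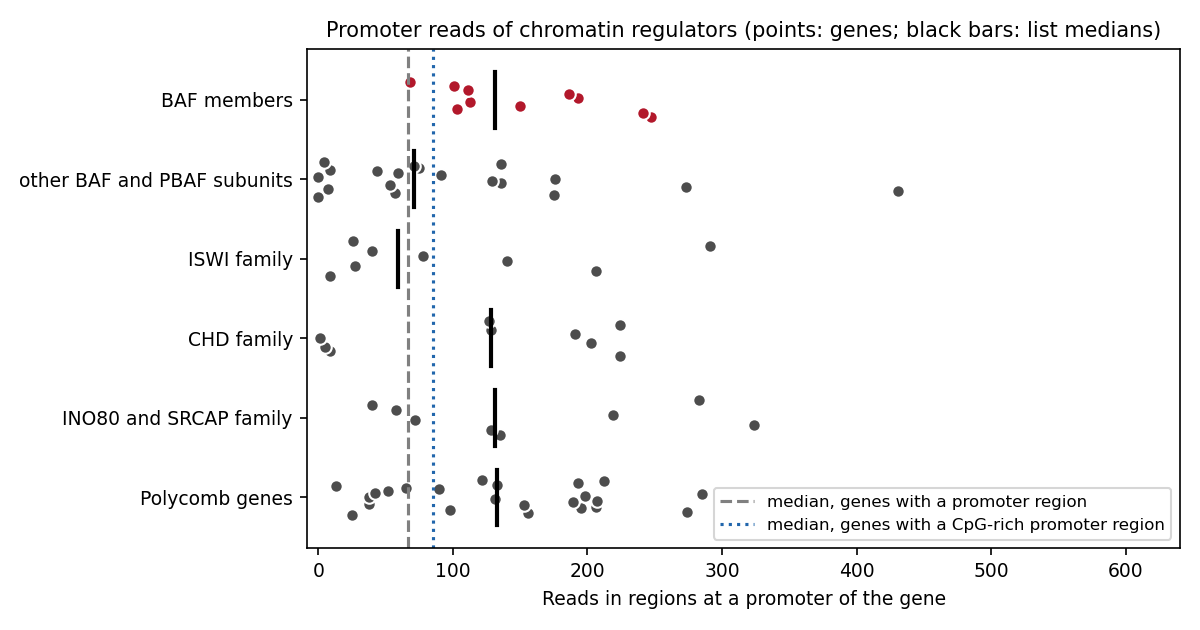
Reads in regions at a promoter for each gene of the BAF members and of 5 lists of other chromatin regulators; points are genes, black bars are list medians, and lines mark the medians of 67 reads over genes with a promoter region and 85 over those with a CpG-rich one. The 10 BAF genes lie between 68 and 247, with no gene near 0, while each other list except the INO80 and Polycomb lists has genes under 10 reads.

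The tissue label was checked on marker promoters. A promoter region was present at 12 of 13 dental mesenchyme genes (Barx1 had none) and at 0 of 7 leukocyte genes. Of all protein-coding genes, 64.6% had one. The dental mesenchyme genes had a median of 89 promoter reads, with 164 at Msx1 and 28 at Gli1. The median CpG ratio was 0.69 over the dental mesenchyme list and 0.22 over the leukocyte list. Cell type and promoter CpG content thus cannot be told apart in these counts. Regions away from promoters were still nearest to genes of other cell types. The highest sums were 591 reads at the leukocyte gene Ptprc, 1019 at the endothelial gene Cdh5 and 927 at the dental mesenchyme gene Msx2. Their spans were 657, 692 and 339 kb. Median reads away from promoters were 12 over the leukocyte list, 60 over the endothelial list and 222 over the dental mesenchyme list. A promoter region was present at 4 of 5 endothelial genes (at most 54 reads, at Kdr), 3 of 5 dental epithelium genes (at most 28, at Krt14) and 2 of 5 Schwann and neuronal genes. BAF genes are active in most cell types, so the reads at their promoters can come from any cell in the sample. The part of other cells was not tested, and fewer open cells and less open chromatin per cell cannot be told apart in a bulk library.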

How the data were processed

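ATAC-seq was run on dental mesenchymal cells of 1 group of mice. Per the labels' protocols, reads were sequenced in pairs on a NextSeq500, aligned to mm10 with BWA-MEM, and peaks were called with MACS2. STAR 2.6.1d and Partek are listed too, per the submitters' processing notes. Read shifting, duplicate removal and the libraries used for peak calling are not given in the sources used here. Duplicates kept in the counts would make the intervals too narrow.

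The authors deposited CPM values for 121574 regions. Dividing by 0.0484 CPM, the smallest step of the column, and subtracting 1 gave whole reads at 99.9% of regions (tolerance 0.01 read). The expected counts that the authors deposited in a shorter table of 16382 regions differed from these reads by at most 0.00155. All regions together held about 2298000 reads, with a median of 7. Left out was 1 value column with no sample. The sequence of 1 region and the values of 1 marker gene are not reported here.

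Genes and TSSs are those of the GENCODE vM21 basic annotation (protein-coding transcripts). A region was away from promoters when it overlapped 1 kb either side of no coding TSS. The span of a gene is the sequence nearest to its TSSs. Every member was named with its promoter reads, and of other lists the highest and lowest, with further subunits chosen after their values were seen. The members and lists were chosen with earlier results of these data known. Assignment was checked on simulated regions. Software was Python 3.11.15 with SciPy 1.17.1, pandas 2.3.3 and pysam 0.24.0.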

Additional observations from a re-analysis of the deposited data

How the results depend on the processing

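With 1 library there is no replicate error, and leaving out each lane was not run because the lanes share 1 set of values. No paired analysis was possible because there is 1 group. The share of member reads at promoters was 53.2% with a window of 500 bp, 60.8% with 2 kb, 44.8% with 1 TSS per gene and 60.2% without regions under 10 reads. The share over all regions, 51.2%, belongs to the main setting only. Whether the members lay above all regions at the other settings is thus not shown. Median promoter reads were 164 with 2 kb and 104 with 1 TSS per gene, and median reads in all regions were 140 when starts of any gene type competed. Per kilobase of region the Smarca4 to Smarca2 promoter ratio was 1.55, the Smarcc1 to Smarcc2 ratio 1.88 at promoters and in all regions, and 2 ratios turned: Smarca2 to Smarca4 in all regions became 0.29 and Arid1b to Arid1a 0.54. By the largest region of each gene these 2 became 0.58 and 0.62, the Arid1a to Arid1b promoter ratio was 1.23 and the Smarca4 to Smarca2 promoter ratio 1.73. The last value was also that for the upstream Smarca2 promoter alone, chosen after seeing the data. Other settings for the pairs were also chosen after seeing the data. With 1 TSS per gene the Smarcc1 to Smarcc2 promoter ratio turned to 0.84 and the Smarca4 to Smarca2 promoter ratio was 1.73. With starts of any gene type the Arid1b to Arid1a ratio in all regions turned to 0.68. By gene body and 10 kb upstream that ratio was 1.755 and the Smarcc1 to Smarcc2 ratio 2.496. The Smarcc1 counts behind 0.84 and 2.496 take in sequence near the TSS of Dhx30. At a depth of 7 reads per median region, small regions are poorly measured.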
